A study of Saccharomyces cerevisiae with 219 samples.

Results

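The ribosome of the yeast cytosol is built from a small and a large subunit, and the genes that encode its proteins are described here in cultures of Saccharomyces cerevisiae in and out of stationary phase. A gene was taken as a member when its symbol was RPS or RPL followed by a number, with or without the letter A or B, or when it was 1 of the stalk genes RPP0, RPP1A, RPP1B, RPP2A and RPP2B, and when both array designs of the study carried it. The rule gave 135 genes of the 5710 on the arrays, 55 of the small subunit and 80 of the large subunit, where the 5 stalk genes were counted. The members lie on 15 chromosomes, and 116 of them form 58 A and B pairs, 24 in the small and 34 in the large subunit.

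Ribosomal proteins are made together and in near equal amounts, and in growing yeast their messages are among the most abundant in the cell. The regulators Rap1, Fhl1, Ifh1 and Sfp1 act on most of these genes downstream of the TOR and protein kinase A pathways, so that the whole group falls in starved cells and returns when nutrients do. Most of the genes exist as A and B copies left by an ancient genome duplication, whose proteins are identical or nearly so, and 70-base probes may read both copies of such a pair. A change in such a gene's array value can come from the number of messages in the cell or from the share of them that the RNA isolation recovers, and arrays of total RNA cannot tell these apart, nor fewer cells holding a message from less of it in each cell.

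The study asked how transcript abundance in stationary phase cultures answers oxidative stress, and whether messages are held in a form that resists extraction. It used 219 two-colour arrays in 7 sets, each array carrying a Cy5-labelled sample against a Cy3-labelled common reference made of stationary and exponential RNA mixed 1:1, so that every value below is a log2 ratio to that mixture, centred on the median of all genes of its array. Strain S288c was given menadione, which raises superoxide inside the cell, and sampled every 30 min from 0.5 to 8 h (32 arrays and 6 T0 arrays taken before the drug), every minute from 1 to 35 min and at 60 min (72 arrays and 6 T0 arrays), or every 10 s from 10 to 180 s and at 300 s (19 single arrays and 6 T0 arrays; 7-day cultures and 50 µM menadione according to the labels). A polymerase set held the RNA polymerase II mutant, its parental strain and S288c, each at 0 min (2 arrays), 2 min and 30 min of menadione (1 array each). The mutant carries the temperature-sensitive allele rpb1-1, and all 3 strains were kept at the temperature that is non-permissive for it before the first sample. A protease set held cell-free lysates of stationary cultures (SP), of exponential cultures (EX) and of SP cells after 2 min of menadione (SP2min), incubated with trypsin, proteinase K or Qiagen protease or with buffer alone, 2 arrays each, SP2min with trypsin and its buffer only. An isolation set compared, in unstressed SP cells, hot phenol and proteinase K with the study's modified protocol (2 arrays each). The last set followed SP cultures after a temperature upshift from 30 to 480 min in steps of 30 min (32 arrays) and has no T0 arrays of its own, so it was set against the T0 arrays of the 30-min menadione series. The study's text names the duplicates of the protease and isolation sets as biological replicates. For the other sets the sources used here do not say which arrays come from separate cultures, so the p-values measure the spread between arrays, which may be technical there.

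Several arrays stood apart or occurred more than once. The 10-s T0 arrays 4 and 5 held the values of the S288c 0 min arrays of the polymerase set (r = 0.9993 and 0.99906 across genes), and the S288c 2 min and 30 min arrays of that set held the values of a 2 min and a 30 min array of the 1-min series. Each T0 array of the 30-min series matched a T0 array of the 1-min series (r = 0.97706 to 0.98101), and the 30 min upshift arrays matched an SP2min buffer array and an SP2min trypsin array of the protease set (0.99125 and 0.99421). The T0 arrays of the 1-min series were of the same array design as the 30-min and upshift series while its menadione arrays were of the other, so that drug and array design cannot be told apart there. A list of 12 stationary phase markers (among them HSP12, HSP26, SSA3 and SPG4) and a list of 12 growth markers (among them NOP1, PMA1 and ENO2) served to check the labels: the stationary list had medians of 1.72 to 2.08 in the T0 arrays of the 30-min series but −1.84 and −1.98 in the S288c 0 min arrays, and −7.48 in the second SP buffer array of the proteinase K group, where the EX arrays with proteinase K or its buffer had −6.57 to −5.94. Arrays held values for 742 to 5489 genes, the lowest in the second 0 min array of the mutant, which measured 48 members where every other array measured 118 to 135.

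In the 30-min menadione series the ribosomal protein genes first stood above T0 and later below it. The median member of an array was −2.75 at the lowest, −2.61 at the median and −2.20 at the highest over the 8 arrays from 0.5 to 2 h, against −4.12, −3.68 and −3.56 over the 6 T0 arrays, so the groups did not overlap. Of 135 members, 80 rose by at least 2-fold (limma with Benjamini-Hochberg adjustment) and none fell, where 12.9% of all 3758 genes tested rose and 10.2% fell, and the median member was 1.13 higher on the log2 scale while the median of all genes was 0.05. The subunits had close medians, with 34 of 55 small subunit genes called and a median of 1.15, and 46 of 80 large subunit genes called and a median of 1.11. In the same arrays the stationary markers, 8 of 11 tested called lower and 1 higher, lay at medians of −1.06 to 0.23 against 1.72 to 2.08 at T0, and their part in the result was not tested.

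Both subunits held genes with large gains. RPL39, a very small protein at the mouth of the tunnel through which new chains leave, lay at −1.65, −1.08 and −0.87 (lowest, median, highest of 8 arrays) against −4.35, −3.15 and −2.87 in the 6 T0 arrays, and rose by 2.22 ± 0.26 (SE; limma adjusted p = 1.36e-06). RPL10, which joins the large subunit late in its assembly, averaged −0.97 ± 0.39 (SD, n = 8) against −2.74 ± 0.29 at T0 (n = 6), a rise of 1.77 ± 0.18. The small subunit genes RPS7B (1.79 ± 0.39) and RPS9A (1.75 ± 0.38) and the large subunit gene RPL22A (1.82 ± 0.60, adjusted p = 0.0213) completed the upper end. At the other end, 5 genes stayed near T0. They were RPL41B (−0.13 ± 0.31), which encodes the smallest protein of the ribosome, RPS27A (−0.10 ± 0.32), a zinc-binding small subunit protein, RPL32 (−0.06 ± 0.49), RPS30B (−0.01 ± 0.29) and RPS25B (0.04 ± 0.39), none of them called. RPL32 is measured by 17 probes here, which within an array had a median SD of 0.803 in this series, so its mean is a rough one.

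Between 2.5 and 4.5 h the median member of an array passed back through the T0 level, at −4.24 to −3.07 over 10 arrays, and from 5 to 8 h it lay below it, at −5.44, −4.98 and −4.25 (14 arrays). Against T0, 93 of 135 members fell and 1 rose, with 15.5% of 3758 genes called lower and 10.5% higher, and the median member was −1.28 where the median of all genes was −0.18. Without centring this count was 6 lower and 3 higher and the median −0.13, because the array medians themselves stood at 0.16 to 2.16 late and at −1.53 to 0.61 at T0. The late loss is therefore one relative to the other genes of the array. The stationary markers were back at medians of 1.32 to 1.92 in these arrays.

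**Figure D1:**
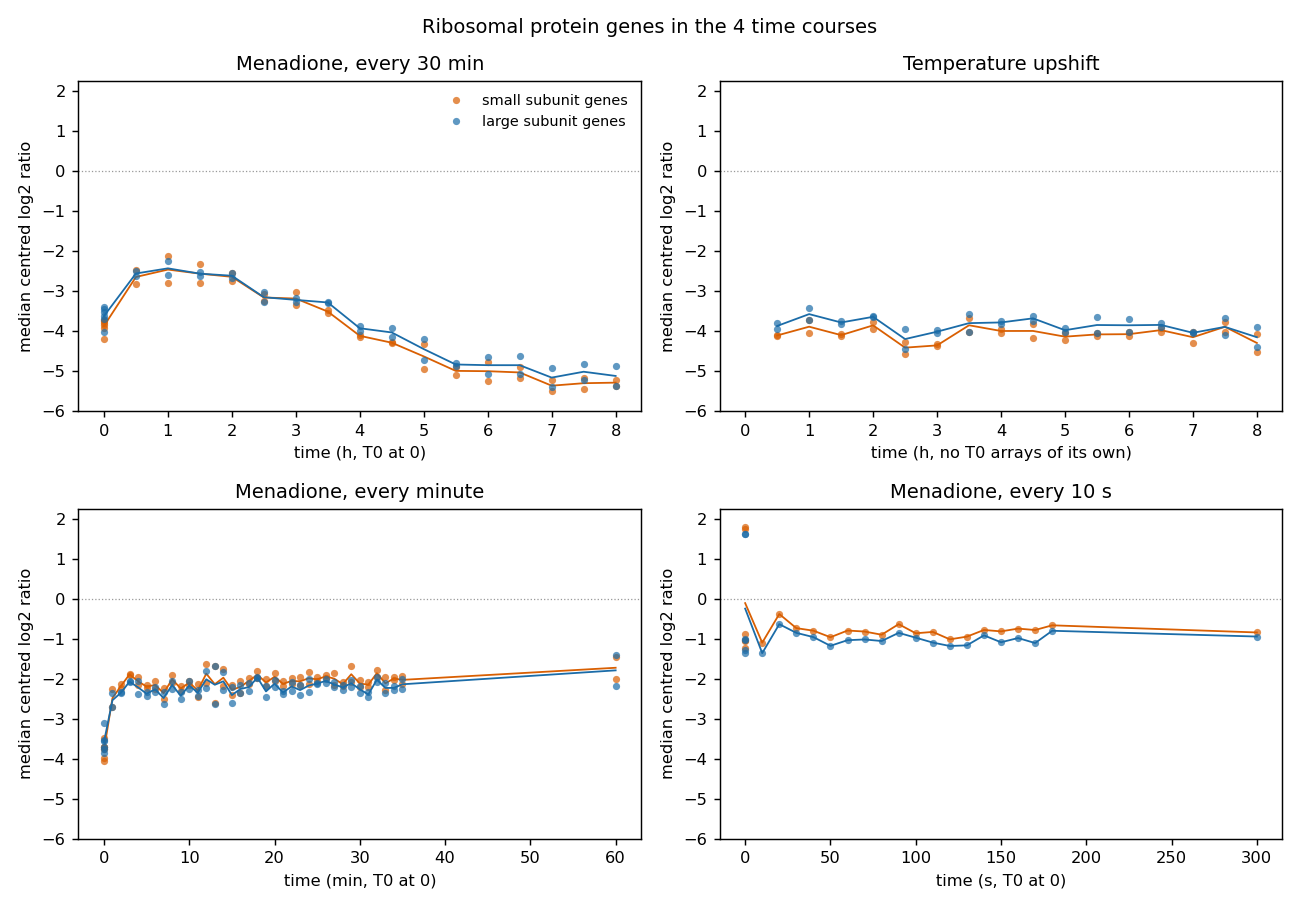
Median centred log2 ratio of the small and the large subunit genes in each array (points) against time, with lines through the mean of each time, for the 30-min menadione, temperature upshift, 1-min menadione and 10-s menadione series. In the 30-min series the median member stands at −2.75 to −2.20 from 0.5 to 2 h and at −5.44 to −4.25 from 5 to 8 h, while the upshift arrays stay between −4.48 and −3.58 throughout.

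Both subunits also held the steepest late losses. RPL30, whose protein binds its own precursor message and holds back its splicing, lay at −7.72, −6.43 and −5.65 from 5 to 8 h against −4.38, −3.78 and −3.58 at T0, a fall of 2.58 on the log2 scale (SE 0.18, adjusted p = 3.35e-11). RPS0A, needed for the assembly of the small subunit, lay at −7.85, −6.90 and −6.04 against −4.77, −4.29 and −3.92 (−2.57 ± 0.34), and RPS2, a protein of the decoding site, was at −2.49 ± 0.18. RPL34A (−2.48 ± 0.22) and RPS24A (−2.41 ± 0.53) followed. RPL10 went the other way, with −1.26, −0.81 and −0.32 late against −3.30, −2.66 and −2.49 at T0 (+1.94 ± 0.16, adjusted p = 6.38e-10), and was the only member called higher. RPP2B and RPL27A were also above T0, each by 0.50 (SE 0.45 and 0.27), and neither was called. Low values are coarse in this series: in T0 array 4 RPL18B, RPL7B and RPP0 all held −5.58. The sizes of the steepest falls are therefore rough. RPL30, RPS0A, RPS2, RPL34A and RPS24A had a value in all 38 arrays of the series.

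Set against the 0.5 to 2 h arrays, the 5 to 8 h arrays had 127 of 135 members called lower and none higher, with 14% of 3717 genes called lower and 5.89% higher. These 2 windows share no arrays, although both entered the comparisons with T0 above. The median member was −2.38, a fall of 2.46 at the median of the small and 2.34 at that of the large subunit. RPS0A (−3.79 ± 0.31), RPL8A (−3.70 ± 0.41), RPS24B (−3.62 ± 0.17), RPL30 (−3.58 ± 0.17) and RPS2 (−3.39 ± 0.16) lost most. The 8 members outside the call were RPL10 (0.16 ± 0.15), RPS30A (−0.50 ± 0.25), RPL41A (−0.56 ± 0.17), RPL32 (−0.73 ± 0.40), RPP2B (−0.84 ± 0.40), RPL35A (−0.88 ± 0.23), RPL9A (−0.96 ± 0.13) and RPL27A (−0.99 ± 0.24), of which RPL41A, RPL35A, RPL9A and RPL27A passed the p threshold (0.0103 or less) but were under 2-fold. RPL35A, RPL9A and RPL27A were named after their values were seen.

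The stalk is the arm of the large subunit that calls in the elongation factors, with RPP0 as its base and the acidic proteins RPP1A, RPP1B, RPP2A and RPP2B as its tip. RPP0 followed the group closely, at −3.52 ± 0.13 (SD, n = 8) from 0.5 to 2 h and −6.85 ± 0.56 (n = 14) from 5 to 8 h against −5.19 ± 0.34 at T0 (n = 6), with no overlap in either comparison, and it rose by 1.68 ± 0.18 and fell by 1.66 (SE 0.16). RPP1B did the same, with 1.11 ± 0.29 early and −1.96 ± 0.26 late. RPP1A scattered widely between arrays (SD 1.28 at T0), stood at 0.10 ± 0.56 early and fell by 1.48 late (SE 0.51). With the replicate number as a block, which leaves only T0 arrays 1 and 2 in the comparison, RPP1A was at 1.45 early and −0.13 late, called early and not late. RPP2A was at 1.61 ± 0.86 early and −0.85 ± 0.78 late and was called in neither, and RPP2B rose by 1.34 ± 0.49 early (adjusted p = 0.0385) and was at 0.50 ± 0.45 late. Without that block, both P1 genes were called lower than T0 late and neither P2 gene was, a difference between the kinds that was not tested.

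A further group of members is made as fusions to ubiquitin, which is cut off after translation: RPL40A, RPL40B and RPS31. RPS31 of the small subunit rose by 1.35 ± 0.21 early and fell by 1.73 late (SE 0.19). RPL40B rose by 1.20 ± 0.39 early and fell by 1.12 late (SE 0.35), and RPL40A, at 0.71 ± 0.17 early, was under 2-fold and fell by 1.02 late (SE 0.15). RPL38, which has no paralog, rose by 1.10 ± 0.21 early and was at −0.98 ± 0.19 late, just under 2-fold. Without centring, RPL38, RPL40A, RPL40B and RPP2A stood slightly above T0 in the late arrays (0.03 to 0.30).

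**Figure D2:**
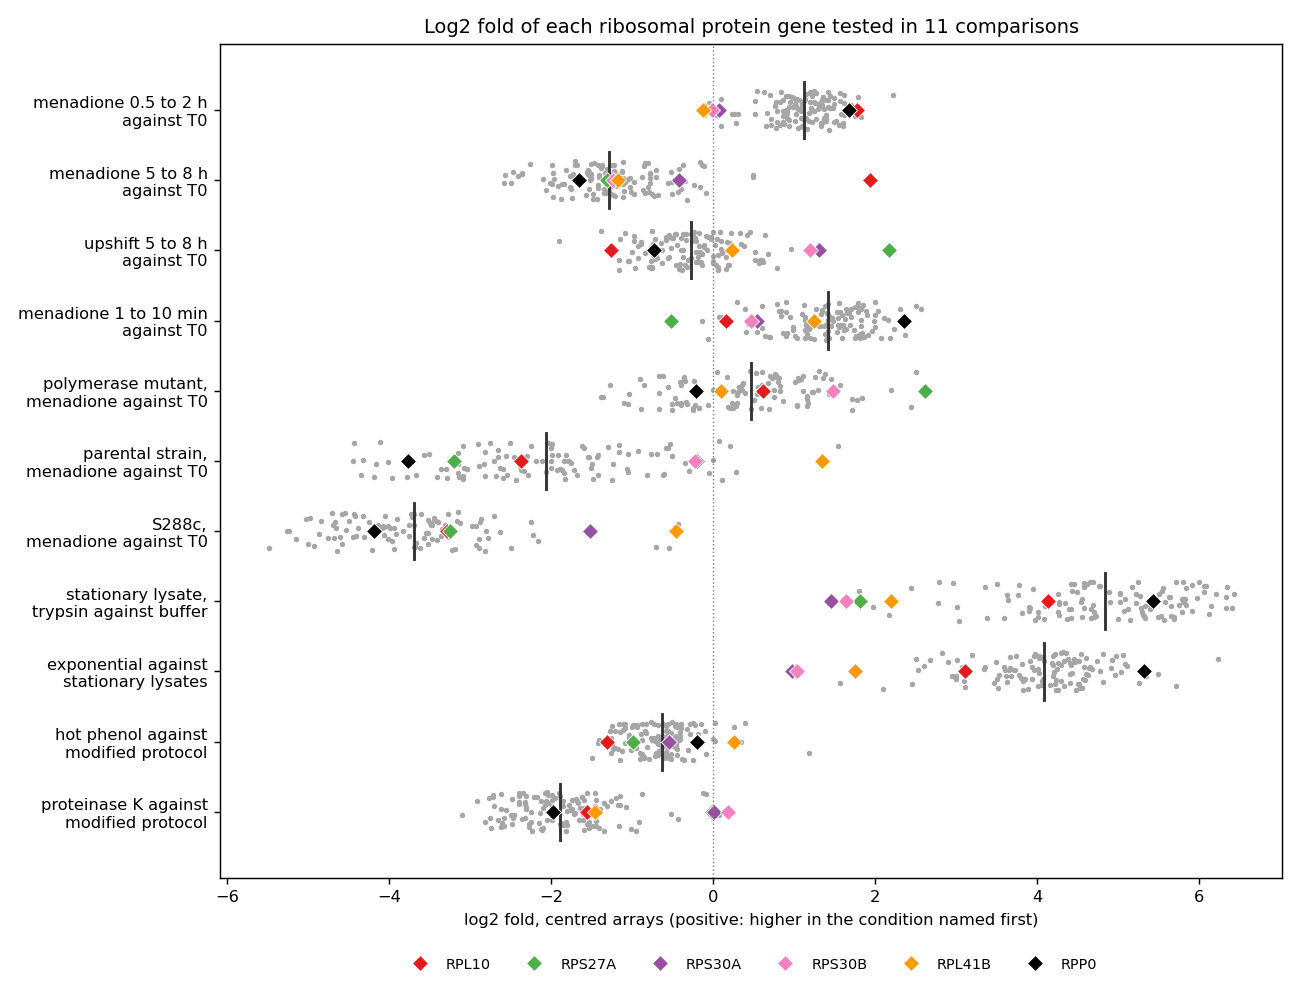
Log2 fold of every tested ribosomal protein gene (points) in 11 comparisons, with the median of the members as a bar and RPL10, RPS27A, RPS30A, RPS30B, RPL41B and RPP0 marked. The members' medians run from −3.70 (S288c of the polymerase set) to 4.83 (SP trypsin), and RPS27A, RPS30A and RPS30B lie at the edge of the group in several comparisons.

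After the temperature upshift most ribosomal protein genes lay near the T0 level of the 30-min menadione series. Those T0 arrays belong to another experiment, so upshift and experiment cannot be told apart in the comparisons with T0. The median member was −4.06, −3.88 and −3.58 over the 8 arrays from 30 to 120 min and −4.48, −4.02 and −3.72 over the 14 arrays from 300 to 480 min, against −4.12, −3.68 and −3.56 at T0. From 30 to 120 min 1 of 135 members rose (6% of 3248 genes rose and 2.83% fell), and from 300 to 480 min 4 rose and 12 fell (9.4% and 8.13% of 3126 genes), with a median member of −0.27. Without centring 4 were called from 300 to 480 min, 2 higher and 2 lower, so that most of the losses are relative to the other genes of the array. Early and late upshift arrays differed in no member at the threshold, 30 members having an unadjusted p under 0.05 and 2.26% and 2.65% of 3094 genes being called higher and lower. RPS3, which lines the entry of the message channel, was at −0.93 ± 0.18 there (adjusted p = 0.000164), under 2-fold.

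A small number of genes lay away from that T0 level in the upshift arrays. RPS27A was the single gene called from 30 to 120 min (1.63 ± 0.28), a count that was 0 without replicate 1 and 3 without replicate 2 of the upshift. With the replicate number as a block, which leaves only T0 arrays 1 and 2 in the comparison, the count was 11. From 300 to 480 min RPS27A lay at 0.88, 1.09 and 1.43 against −2.19, −0.91 and −0.05 at T0 (2.17 ± 0.25, adjusted p = 2.72e-09). RPS30A and RPS30B, whose animal counterpart is made as a fusion to a ubiquitin-like protein, rose by 1.30 ± 0.22 and 1.19 ± 0.23, with 0.06 to 0.81 in RPS30A against −1.54 to −0.35 at T0. RPL19A, which forms a bridge to the small subunit, rose by 1.34 ± 0.20. Among the 12 that fell, 11 of them large subunit genes, were RPL12A of the stalk base (−1.39 ± 0.26), RPL10 (−1.27 ± 0.16), RPS0A (−1.17 ± 0.30), RPL4A (−1.16 ± 0.24), RPL30 (−1.15 ± 0.19) and RPP1B (−1.05 ± 0.23). RPP0 (−0.73 ± 0.17) was under 2-fold. RPS0A and RPL30 were thus called lower late after both treatments, and RPL10 in opposite directions, in comparisons that share the T0 arrays.

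The 5 to 8 h menadione arrays were also compared directly with the 300 to 480 min upshift arrays, of the same array design and times. Here 65 of 135 members were lower under menadione and 4 were higher (23.8% and 12.9% of 3103 genes). The series are separate experiments, so treatment and experiment cannot be told apart in this comparison either. RPL10 differed most, at −1.26, −0.81 and −0.32 under menadione against −4.57, −3.98 and −3.49 after the upshift (3.20 ± 0.12, adjusted p = 2.4e-25), and across all 32 menadione arrays it never left the range of −1.71 to −0.32. RPS27A differed most in the other direction, at −3.62, −2.24 and −1.80 against 0.88, 1.09 and 1.43 (−3.47 ± 0.19), followed by RPS30B (−2.43 ± 0.18), RPL19A (−2.17 ± 0.16), RPL36B (−2.09 ± 0.14) and RPP1A (−2.06 ± 0.36). RPP0 (−0.93 ± 0.13) was under 2-fold. The other members higher under menadione were RPP2B (1.26 ± 0.30) and, named after their values were seen, both RPL27B (1.82 ± 0.28) and RPL27A (1.08 ± 0.19). Without centring the count was 5 lower and 6 higher.

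**Figure D3:**
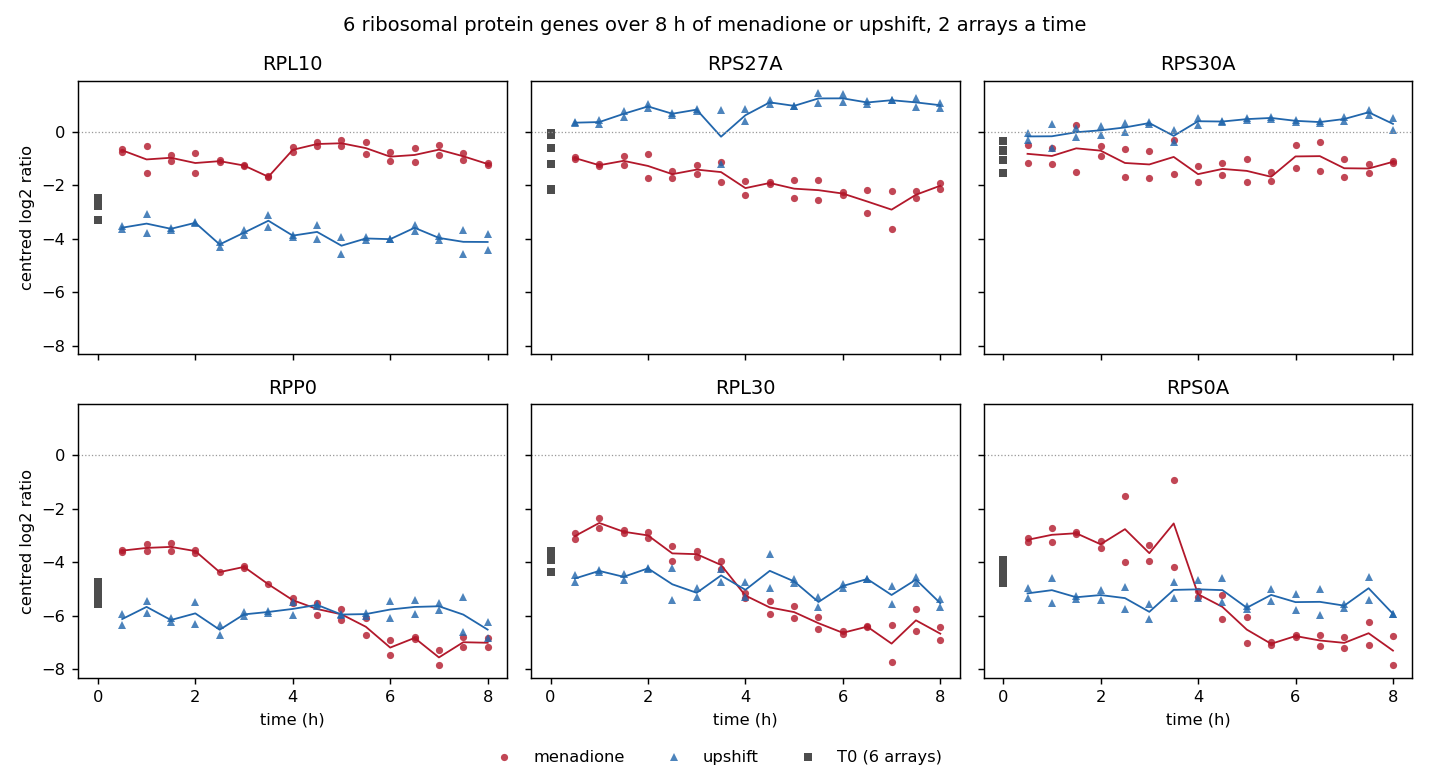
Centred log2 ratio of RPL10, RPS27A, RPS30A, RPP0, RPL30 and RPS0A in each array of the 30-min menadione and the temperature upshift series against time, with T0 arrays as squares. RPL10 stays at −1.71 to −0.32 under menadione and lies at −4.57 to −3.49 late after the upshift, and RPS27A lies at −3.62 to −1.80 late under menadione and at 0.88 to 1.43 late after the upshift.

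In the 1-min series the ribosomal protein genes stood high from the first sample on. The mean over arrays of the median member was −2.52 at 1 min, −2.27 at 2 min and −2.05 at 3 min, and over the 20 arrays from 1 to 10 min the lowest was −2.71 and the median −2.27, against a median of −3.68 and a highest of −3.39 in the 6 T0 arrays. Of 130 members tested 100 rose and none fell, between arrays of different designs, with 20.7% of 3749 genes called higher and 16.3% lower and a median member of 1.42. RPP2A (2.57 ± 0.20), RPS20, a protein of the small subunit head (2.50 ± 0.17), RPL39 (2.41 ± 0.21), RPP0 (2.36 ± 0.15) and RPL31A, at the tunnel exit (2.31 ± 0.21), gained most. RPS27A (−0.52 ± 0.21, under 2-fold) and RPL32 (−0.14 ± 0.14) lay at the bottom with RPL10 (0.16 ± 0.13). The stationary markers lay at medians of 0.96 to 1.89 in these arrays against 1.71 to 2.11 at T0, with 3 of 10 tested called higher and 3 lower. Early in the 30-min series their medians had lain further below T0. The growth markers lay at −2.09 to −1.01 against −3.55 to −1.93 at T0, 8 of 12 called higher and 1 lower.

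The level then stayed near that of the first minutes. From 26 to 35 min the median member was −2.43 to −1.87, and no member of 130 was called against 1 to 10 min, where 41 had an unadjusted p under 0.05 and 0.108% and 0% of 3720 genes were called higher and lower. This comparison lies within 1 array design. The 2 arrays at 60 min had −1.42 and −2.09, of which the first lay above all arrays from 1 to 35 min, a difference that was not tested. RPL31A (0.47 ± 0.14, adjusted p = 0.066) and RPL2B, next to the catalytic centre of the large subunit (−0.43 ± 0.12, adjusted p = 0.0533), marked its ends. RPL10 differed between the series at the same nominal times: it was −0.75 and −0.64 at 0.5 h and −1.53 and −0.55 at 1 h in the 30-min series, and −2.69 and −2.31 at 30 min and −3.16 and −2.54 at 60 min in the 1-min series. Its T0 values were alike in both, at −3.30 to −2.49 and −3.12 to −2.47. The T0 arrays of the 2 series match each other, so this likeness is no independent check. The array designs of the menadione samples differed.

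In the 10-s series the outcome rested on which T0 arrays were used. Each time had a single array, so the tests took the different times of a window as replicates. The median member lay at −1.22, −0.92 and −0.59 over the 6 arrays from 10 to 60 s and at −1.11, −0.96 and −0.73 from 130 to 180 s, against −1.26, −0.99 and 1.71 over the 6 T0 arrays. The 4 T0 arrays that were not found elsewhere lay at −1.26 to −0.97, and the 2 shared with the polymerase set at 1.68 and 1.71. No member of 135 was called from 10 to 60 s (28 with an unadjusted p under 0.05, 0.0226% and 0.0679% of 4420 genes called higher and lower), and 1 from 130 to 180 s (0.407% higher and 0.86% lower). That gene was RPS27B, at −1.47 to −0.69 from 130 to 180 s against −0.55 to 2.35 at T0 (−1.77 ± 0.40, adjusted p = 0.0246). The call was lost without T0 array 5 or without the array at 130, 170 or 180 s, and 8 members were called without T0 array 1. RPS19B, at −0.75 to −0.42 against −2.15 to −1.03, was 0.88 ± 0.20 higher, under 2-fold. Without the shared T0 arrays no member was called in either window and the median member was 0.18 and 0.20, in place of −0.66 and −0.63. The rise of 1.42 from 1 to 10 min in the 1-min series, against T0 arrays of another array design, was thus not seen here on centred arrays. All arrays of the 10-s series share an array design. What lay behind this difference between the series was not tested. Without centring 51 members were called from 130 to 180 s, in a set whose array medians lay at 2.17 to 2.40 in that window and at 0.00 to 1.36 at T0.

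In the polymerase set most ribosomal protein genes fell after menadione in the parental strain and in S288c, and none was called in the mutant. At 2 and 30 min of menadione the median member was −0.61 and −0.66 in the mutant, against −1.17 and −0.32 at 0 min. In the parental strain it was −2.10 and −2.18 against −0.59 and 0.47, and in S288c −2.29 and −2.13 against 1.62 and 1.73. In the mutant no member of 111 was called (3 or 4 without replicate 2 or 1 of the 0 min arrays), 19 having an unadjusted p under 0.05 and no gene of 1402 being called (0% higher, 0% lower). Among members with a value in all 4 arrays of the mutant, RPL36B (1.84 ± 0.33, adjusted p = 0.131) and RPS2 (−0.67 ± 0.45) marked the ends, and RPP0 was at −0.21 ± 0.42. In the parental strain 79 of 119 members fell and 2 rose (23% and 20.7% of 1696 genes), and in S288c 105 of 109 fell (18.3% of 1584 genes, 27.2% rose). The parental count of 81 called members was 19 without centring, 18 with only genes measured in every array of the set (35 members tested), 49 with the replicate number as a block and 54 without replicate 2 of the 0 min arrays, while the median member stayed at −2.07 to −1.57 in these fits. The 2 and 30 min S288c arrays are also in the 1-min series, and there they stand above T0 arrays with a mean of −3.70. The 0 min arrays of S288c are those with low stationary markers (1.59 and 1.71 at 2 and 30 min against −1.84 and −1.98 at 0 min), and the part of that in the result was not tested.

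**Figure D4:**
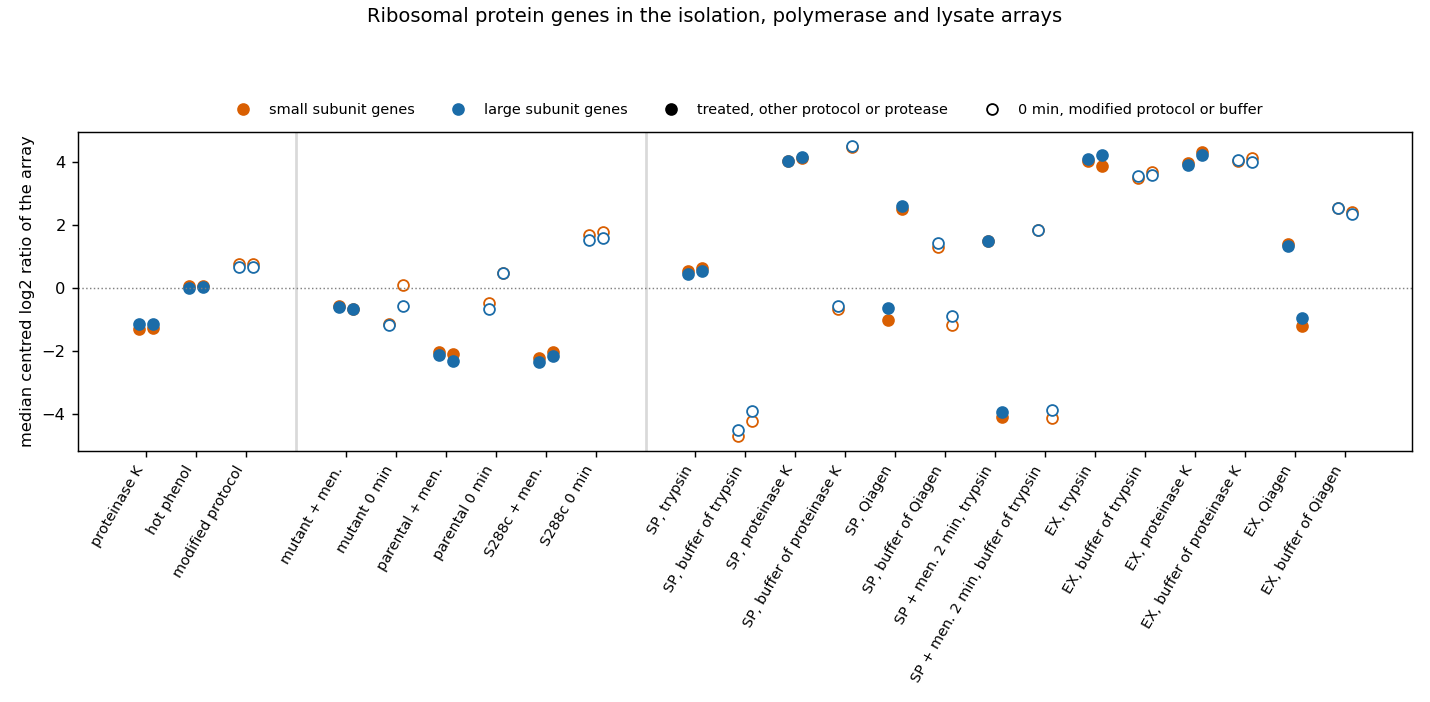
Median centred log2 ratio of the ribosomal protein genes in each array of the isolation, polymerase and protease sets, with treated arrays as filled and their references as open symbols to the right of them. SP lysates with trypsin lie at 0.50 and 0.57 against −4.61 and −4.09 in buffer, whereas both SP proteinase K arrays lie at 4.05 and 4.16 against −0.61 and 4.50 in buffer.

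RPL2B and RPL2A lost most in the parental strain, RPL2B with −4.70 and −4.15 after menadione against −1.08 and 1.13 at 0 min (−4.45 ± 0.76) and RPL2A with −4.44 ± 0.68. RPS27B (−4.34 ± 0.48), RPS14A of the decoding platform (−4.32 ± 0.63) and RPL14A (−4.19 ± 0.46) followed. RPL41B rose in this strain, at −0.01 and −0.34 against −1.60 and −1.44 (1.34 ± 0.31, adjusted p = 0.021), and so did its copy RPL41A (1.54 ± 0.45, adjusted p = 0.0491, with a single array at 0 min), which was named after its values were seen. In S288c RPL33B fell furthest, with −2.41 and −1.98 against 3.24 and 3.33 (−5.49 ± 0.32), then RPS13 (−5.26 ± 0.62), while RPL28 (−0.43 ± 0.49) and RPL41B (−0.45 ± 0.31) were not called, nor were RPL1B and RPL41A, which were named after their values were seen. The response of the mutant exceeded that of the parental strain in 33 of 111 members and fell short of it in none (9.58% and 7.39% of 1367 genes), RPS14A (5.12 ± 0.90), RPL14A (4.88 ± 0.66), RPL14B (4.41 ± 0.71) and the ubiquitin fusion RPL40A (2.45 ± 0.58) among them. RPL41B, at −1.25 ± 0.43, was not called. Without centring, or with the replicate number as a block, no member was called, and 83 were without replicate 2 of the 0 min arrays, among them that of the mutant with few genes. RPP0 was also among the 33 (3.55 ± 0.60), with −0.36 to −0.21 against −0.14 to −0.01 in the mutant and −3.20 to −3.17 against 0.10 to 1.05 in the parental strain. The stationary markers moved with the drug in the parental strain, at 1.71 and 1.66 after menadione against −0.34 and −0.62 at 0 min. In the mutant they were at 1.65 and 1.84 against 1.19 and 0.86, and their part in the result was not tested.

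In cell-free lysates of SP cells, incubation with trypsin went with far higher ribosomal protein values than incubation with buffer. The median member was 0.50 and 0.57 with trypsin against −4.61 and −4.09 in buffer, and all 126 members tested were higher, by 4.83 at the median, where all genes had a median of −0.41. The fit over the whole protease set called none of them (99 had an unadjusted p under 0.05, and 0% of 2485 genes were called in either direction), in a set where the arrays of other groups differ widely. Fitted on these 4 arrays alone, 111 of 112 members were called higher, with 19.5% of 2722 genes higher and 15% lower. RPL2B lay at 0.10 and −0.02 against −6.38 and −6.41 (6.43 ± 2.60, adjusted p = 0.135 in the whole set) and RPS0A at 0.62 and 0.64 against −6.38 and −5.17 (6.41 ± 2.30). RPP0 had −0.59 and −0.48 against −5.80 and −6.15 (5.43 ± 2.34). RPS30A gained least, with 1.01 and 1.16 against −0.35 and −0.39 (1.46 ± 0.71), and RPS27A had 1.53 and 1.49 against −0.63 and 0.03 (1.81 ± 0.70). The stationary markers moved with this contrast, at 0.13 and 0.04 with trypsin against 2.52 and 2.29 in buffer, and the part of that in the result was not tested.

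Proteinase K and Qiagen protease gave no call in SP lysates either, in the whole-set fit that called no member for trypsin. The median standard error of a member was 1.95 for trypsin, 1.95 for proteinase K and 1.94 for Qiagen protease. Differences well over 2-fold could therefore go uncalled in this fit. With proteinase K the median member was 4.05 and 4.16 against −0.61 and 4.50 in buffer, and no member of 130 was called or had an unadjusted p under 0.05 (0% of 2547 genes called). The second buffer array carried the marker levels of the EX arrays, as did both proteinase K arrays (−6.47 and −6.61), and without that buffer array the median member was 4.65 higher and still none was called. RPL7B (2.94 ± 2.26) and RPS30B (−1.76 ± 1.09) marked the ends. With Qiagen protease the values were −0.82 and 2.56 against 1.38 and −0.99 in buffer, so that the spread within a group exceeded any difference. In SP2min lysates the first and the second array stood far apart, at 1.51 and −4.06 with trypsin against 1.85 and −4.00 in buffer, where the stationary markers had medians of −2.28 and 2.62 with trypsin against −2.46 and 2.31 in buffer. No member was called for Qiagen protease or for SP2min trypsin, none having an unadjusted p under 0.05 in either (0% of 2481 and of 2556 genes called). Between SP2min and SP buffer arrays no member of 130 was called either, with 11 at an unadjusted p under 0.05, a median of 3.30 and 0% of 2530 genes called.

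In EX lysates ribosomal protein values were high in buffer and with trypsin or proteinase K, and varied with Qiagen protease. The median member was 4.08 and 4.03 with trypsin against 3.52 and 3.65 in its buffer, 3.94 and 4.25 with proteinase K against 4.06 and 4.09, and 1.36 and −1.08 with Qiagen protease against 2.54 and 2.37. The median member of the second Qiagen protease array stood above only 26.6% of its genes. The stationary markers of these Qiagen arrays were −0.01 and 0.18 with protease against −2.19 and −2.25 in buffer, and their part in the result was not tested. Over the 3 proteases no member of 130 was called or had an unadjusted p under 0.05 (0% of 2461 genes). RPS30A (0.46 ± 0.41) and RPL22A (−1.75 ± 1.40) marked the ends. The protease difference of SP lay above that of EX in 125 of 126 members, by 3.08 at the median. None of them was called (32 with an unadjusted p under 0.05, 0% of 2304 genes called). Against SP buffer arrays, EX buffer arrays had 125 of 130 members called higher and none lower (17.9% of 2410 genes higher, 19% lower), by 4.08 at the median. The SP buffer arrays were unlike each other in their stationary markers, which were 2.52 and 2.29 in the trypsin group but −0.25 and −0.46 in the Qiagen group and −0.22 and −7.48 in the proteinase K group. The call rested on the trypsin arrays, where 126 members were called, against none in the proteinase K or in the Qiagen arrays alone. Without replicate 1 of each buffer group none was called and without replicate 2 there were 3, with medians of 3.55 and 4.69, in fits that left 1 array in each group compared and took the spread from the other groups. Without the second SP buffer array of the proteinase K group 129 were called. RPP0 lay at 4.83 and 5.79 in the EX trypsin buffer arrays against −5.80 and −6.15 in the SP ones, and at 2.25 and 2.38 against 1.81 and −1.83 in the Qiagen arrays. The 5 members with the smallest EX excess were RPS30A (0.97 ± 0.41), RPS27A (1.01 ± 0.40), RPS30B (1.04 ± 0.63), RPL41A (1.57 ± 0.54) and RPL41B (1.75 ± 0.53), the first 3 of them not called. RPL13A (3.72 ± 1.49) and RPL27B (4.01 ± 1.66), named after their values were seen, were the other members outside the call. At the upper end stood RPL2B (5.72 ± 1.51), RPL16A (5.35 ± 1.39), RPP0 (5.32 ± 1.35) and RPS0A (5.26 ± 1.33), with RPP2A at 6.23 ± 1.49, RPS31 at 4.33 ± 1.20 and RPL38 at 2.90 ± 0.83.

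In the isolation set proteinase K went with lower ribosomal protein values. These arrays stood apart from the other unstressed SP arrays, with stationary markers at −0.38 to −0.02 against 1.72 to 2.08 in the T0 arrays of the 30-min series, where the median member averaged −3.74. The median member was −1.23 and −1.18 with proteinase K and 0.02 and 0.04 with hot phenol, against 0.70 and 0.71 with the modified protocol. Proteinase K had 121 of 133 members called lower and none higher (15.1% and 10.7% of 4736 genes), by 1.89 at the median member, and hot phenol had 26 lower and none higher (5.3% and 7.5%), by 0.63 at the median member. Without either replicate no member was called for hot phenol, although the median stayed at −0.67, and 106 to 114 were for proteinase K, in fits that left 1 array in each group compared and took the spread from the third group. RPL2A lay at −2.34 and −1.72 with proteinase K against 1.10 and 1.04 (−3.10 ± 0.30), RPL2B at −2.25 and −2.14 against 0.92 and 0.53 (−2.92 ± 0.20), and RPL39 at −2.05 and −1.98 against 0.73 and 0.87 (−2.82 ± 0.15). RPP2A (−2.76 ± 0.16) and RPL18B (−2.75 ± 0.18) were close behind, then RPS31 (−2.66 ± 0.18), RPL38 (−2.08 ± 0.17) and RPP0 (−1.97 ± 0.16). RPS30A and RPS27A, again with the smallest differences, had 0.83 and 0.96 against 0.87 and 0.90 in RPS30A (0.01 ± 0.15) and 1.27 and 1.36 against 1.42 and 1.24 in RPS27A (−0.02 ± 0.17), and RPS30B was at 0.18 ± 0.24. With hot phenol RPL2A (−1.49 ± 0.30), RPL33B (−1.43 ± 0.20), RPL31B (−1.41 ± 0.20) and RPL10 (−1.30 ± 0.20) were lowest among those called. The growth markers were −1.38 and −1.73 with proteinase K against 0.20 and 0.38 with the modified protocol, and their part in the result was not tested. RPS17B had the highest value with hot phenol (1.19 ± 1.00), which came from 1 array, at 3.27 beside 0.08 in the other. The sign of the proteinase K difference here was opposite to that of trypsin in the SP lysates, and the 2 sets share no arrays.

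Most paralog pairs differed little in their measured response. The probes may read both copies of a pair, so likeness may lie in the probes, which was not tested. From 0.5 to 2 h the folds of the A and B copies had r = 0.52 over the 58 pairs of the 30-min series. Early in the 30-min series 48 of 58 pairs differed in response by less than 0.5 on the log2 scale between A and B, with a median absolute difference of 0.21, and 1 pair was called, where 23.1% of single genes in that fit were called in either direction. That pair was RPL26, at the tunnel exit: A minus B was −0.78 to 0.59 from 0.5 to 2 h against −2.24 to −0.82 at T0, since RPL26A gained 1.40 and RPL26B 0.10 (difference 1.30 ± 0.35, adjusted p = 0.00657). With the replicate number as a block, and so with T0 arrays 1 and 2 only, it was not called (1.27, adjusted p = 0.0669). RPP1 (−1.01 ± 0.69), RPL36 (−0.99 ± 0.28), RPS27 (−0.96 ± 0.37) and RPS26 (0.84 ± 0.51) were the next widest and were not called, RPL36 (adjusted p = 0.00793) and RPS27 (adjusted p = 0.0465) because they were under 2-fold. With the block RPL36 (−1.47) and RPS27 (−1.10) were called, and so were RPL11 and RPL14, in which the A copy gained more, and RPL35, all 3 named after their values were seen.

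From 5 to 8 h 4 pairs were called, in each of which the A copy lost more (26% of single genes were called). They were RPS7 (−1.56 ± 0.39), RPL33 (−1.44 ± 0.55), RPL24, part of a bridge between the subunits (−1.19 ± 0.21), and RPL34 (−1.06 ± 0.22), and 40 pairs differed by less than 0.5. In RPL24 A minus B was −2.61 to −0.96 late against −0.81 to −0.11 at T0, without overlap. RPP2 (−1.35 ± 0.60, adjusted p = 0.0741) was not called. With the replicate number as a block 9 pairs were called late, RPL24 and RPL33 among them, while RPS7 (−0.98) and RPL34 (−0.91) were not. With single replicates left out 1 to 3 pairs were called early and 2 to 9 late. Between EX and SP buffer 2 of 53 pairs were called (37% of single genes), RPS27, in which RPS27B gained 4.16 and RPS27A 1.01 (−3.15 ± 0.90, adjusted p = 0.0162), and RPL36 (−1.28 ± 0.43), with none left without replicate 1 and 1 without replicate 2. For SP proteinase K no pair of 53 was called (0% of single genes), the widest being RPL27 (2.97 ± 1.41), and 5 were called without replicate 2.

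**Figure D5:**
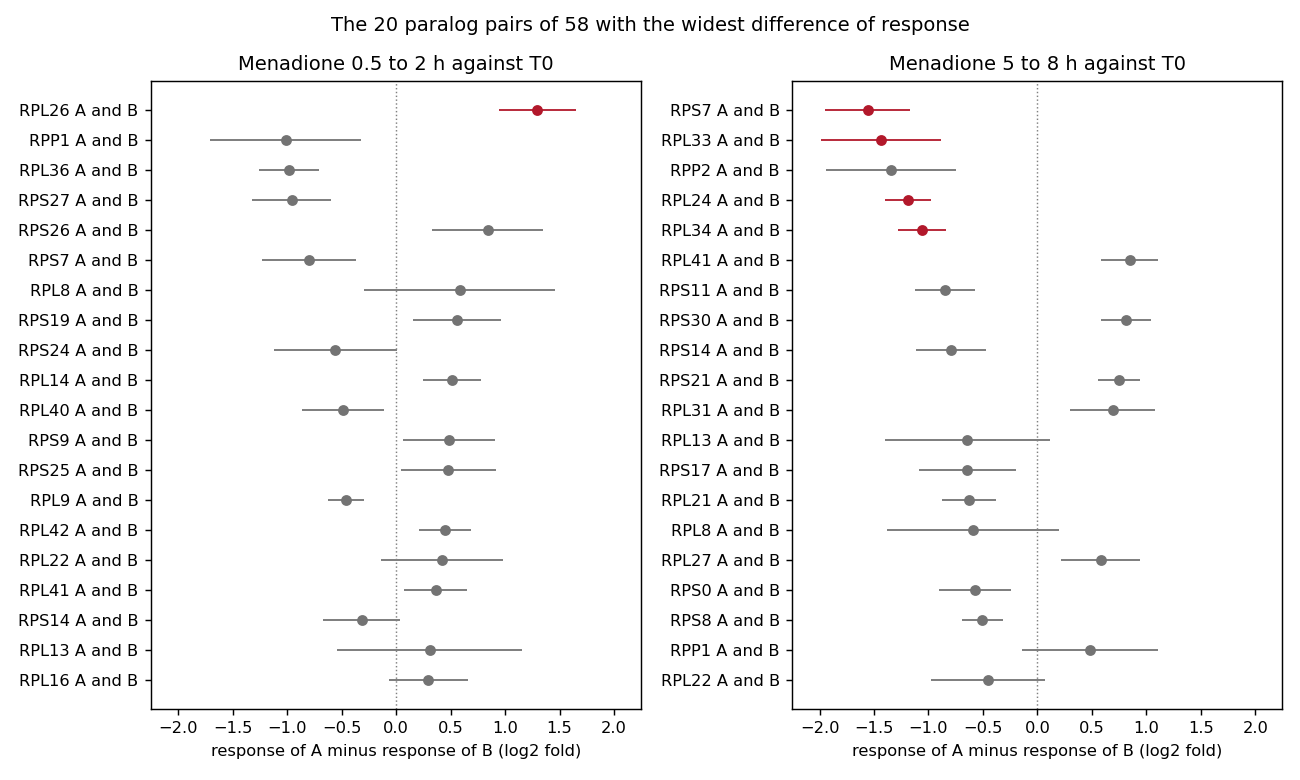
Difference of response between the A and the B copy (log2, points, with the standard error as bars) for the 20 widest of 58 pairs in the 30-min menadione series, for 0.5 to 2 h and for 5 to 8 h against T0, with called pairs in red. RPL26 is the only called pair early (1.30), and RPS7, RPL33, RPL24 and RPL34 are called late (−1.56 to −1.06).

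Across the study the same few genes lay at the edges of the group. Over the 25 comparisons, many of which share arrays, RPS30B was among the 5 highest or the 5 lowest members 13 times, RPS27A 12 times, RPS30A 10 times, RPL2B and RPS0A 9 times, RPL41A 8 times, and RPL10 and RPL41B 7 times. For SP trypsin and for EX against SP buffer RPL2B and RPS0A lay at the outer end of the group and RPS30A and RPS27A at the end nearest 0. Over 130 members the early menadione response and the EX excess over SP, which share no arrays, had r = 0.63, and over 133 members the early response and the proteinase K difference of the isolation set had r = −0.61. These describe the genes in the same probe set and the same common reference, and genes are not independent replicates.

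Within the 38 arrays of the 30-min series the members ran closely together. The correlation of a member with the median member had a median of 0.91, 101 of 135 members were above 0.8, and RPL17A (0.99) was highest. RPL10 (−0.18), RPL32 (0.31), RPS30A (0.38), RPP2B (0.43) and RPL41A (0.48) were the members under 0.5. Of 3665 other genes 80 were above 0.8, led by EFB1, a subunit of the elongation factor that reloads eEF1A (0.96), and by SSB1 and SSB2, the chaperones that receive new chains at the ribosome (0.93 each). STI1, FES1 and BTN2 ran most against the members (−0.94, −0.92 and −0.91). The points are arrays that share a common reference.

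Genes that work with the ribosome were called in some of the same comparisons. Of 10 elongation factor genes, 2 rose early (TEF4, 1.25 ± 0.28, and YEF3, 1.97 ± 0.71), where 12.9% of all genes did, so the list lay near that share. In the late arrays 7 were lower than in the early ones (YEF3, −4.82 ± 0.58, and EFB1, −2.57 ± 0.14, among them), with 14% of all genes. In EX buffer 8 were higher than in SP buffer (17.9% of all genes), and 8 were lower with proteinase K in the isolation set (15.1%). Among ribosome-associated genes 4 of 9 rose early (SSB2, SSZ1, ZUO1 with 1.83 ± 0.20 and SSB1 with 1.42 ± 0.22) and RLI1, which recycles ribosomes, fell by 1.02 (SE 0.35), beside 12.9% and 10.2% of all genes, and from the early to the late arrays 6 of 9 fell, beside 14%. Of 7 tested regulators none was called early. From the early to the late arrays 1 of 7 fell, near the 14% of all genes. That was HMO1, an architectural protein bound at ribosomal protein promoters, which fell by 1.50 (SE 0.14), while RAP1, FHL1 and SFP1 were not called. Of 6 tested chaperones of single ribosomal proteins none was called early, SQT1, which carries Rpl10, standing at 0.55 ± 0.26. From the early to the late arrays 5 could be tested, of which 1 fell, beside 14% of all genes. That was RRB1, which carries Rpl3 and fell by 2.35 (SE 0.49), and SQT1 was at −0.96 ± 0.21. Members that are chromosomal neighbours, of which there are 9 adjacent pairs, had like and unlike responses, as in RPS22A and RPL39 (−2.35 and −2.36 from the early to the late arrays) and in RPL13B and RPS16A (−1.18 and −2.81).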

How the data were processed

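The 219 arrays were spotted with 70-base probes and read in Cy5 (sample) and Cy3 (common reference), on 2 designs with 6979 and 6819 probes. Except in the 10-s series, the deposited values are linear Cy5 over Cy3 ratios after background subtraction by the authors, and values at or below 0 and a marker of 100000 were treated as missing. The values of the 10-s series were deposited as log2 ratios that the authors had normalized to exogenous control RNA, per the labels. The study's methods also name normalization to a spiked plant RNA, and whether the deposited linear ratios carry it is not given in the sources used here. Log2 values throughout had been planned for, so the linear ratios were taken to log2 first. Probes of a gene were averaged and each array was centred on its median over all genes.

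A gene was tested when 80% or more of a fit's arrays measured it, among them some of each group compared, with limma 3.58.1, run in R 4.3.3, each time being a group, a window being the mean of its times and a fit spanning its whole set. P-values were adjusted by the Benjamini-Hochberg method over all genes tested, and calls required both an adjusted p below 0.05 and a fold of 2 or more. All tests were two-sided. A ± value after a fold is its standard error. Scripts ran under Python 3.11.15 with NumPy 2.4.6, pandas 2.3.3 and Matplotlib 3.10.9, and were tested on simulated data. Genes were named as the 5 members with the highest and the 5 with the lowest fold among those with a value in every array compared, plus the 5 stalk genes, RPL40A, RPL40B, RPS31 and RPL38, and the 5 widest pairs, with values printed for those that bear on a result. The members, lists and tests were chosen with earlier results of these data known. Alternatives covered centring, missing values, variance moderation, the arrays fitted, the replicate number as a block and single replicates left out. Arrays carry no read depth, so their number limits the precision. No probe sequence was used here.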

Additional observations from a re-analysis of the deposited data

Results flagged for a closer look

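In 9 of 174 groups of 4 to 6 T0 arrays tested with Dixon's criterion, 1 array stood apart from the others, where chance gives about 1 in 20 groups. In the 30-min series these were RPL10 at −3.30 in T0 array 2, RPL32 at −0.69 and RPP2A at −5.27, both in array 1. In the 1-min series they were RPL41A at −2.27 and RPP2A at −5.35 in array 1, RPS7B at −5.08 in array 2, RPP2B at −4.64 in array 3, and RPP0 at −4.64 and RPS24B at −4.64 in array 4. The T0 arrays of both series match each other, so these are not independent cases.

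The response to menadione was higher in the mutant than in the parental strain in 33 of 111 members by the test of the difference, and lower in none (9.58% and 7.39% of 1367 genes). Without centring, or with the replicate block, no member was called. The menadione and the upshift series differed from 5 to 8 h in 69 of 135 members, 65 lower and 4 higher under menadione (23.8% and 12.9% of 3103 genes). Without centring that count was far smaller and turned in direction. The series are separate experiments, so treatment and experiment cannot be told apart.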

How the results depend on the processing

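Of 309 repeats of the counts of called members, 247 lay within 1.5 times the count given, 55 lay outside and 7 turned in direction, and of 1658 repeats for single named genes 1441 kept direction and call, 126 lost the call, 42 gained it and 49 changed sign. Without centring the counts were 126 for menadione at 0.5 to 2 h, 9 at 5 to 8 h, 7 and 51 for the 10-s series at 10 to 60 s and 130 to 180 s (the second turned in direction), 19 for the parental strain, 0 for mutant against parental response, 48 for hot phenol, 2, 4 and 2 for the upshift early, late and late against early, and 11 for menadione against upshift (turned). Centred on genes with a value in every array, a setting added after seeing the data, early upshift had 9 (1 higher, 8 lower) and menadione against upshift 38. With only genes measured in every array the counts were 18 for the parental strain, 34 for S288c, 5 for mutant against parental response, 10 for late upshift and 45 for menadione against upshift. Fitted on the compared arrays alone they were 0 for the 10-s series at 130 to 180 s, 69 for mutant against parental response, 111 for SP trypsin, 0 for EX against SP buffer and 2 for early upshift. Other settings added after seeing the data gave 0 for the 10-s series at 130 to 180 s without T0 arrays 4 and 5, 0 for EX against SP buffer in the proteinase K and 0 in the Qiagen arrays alone, and 2 (early) and 1 (late against early) for the upshift without its 30 min arrays. The causes were not tested.

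Replicate numbers were not used to pair the arrays in the main fits, since at least 1 pair of groups correlated under 0.1 in every set. Among the 120 and 630 pairs of groups of the 30-min and 1-min series, 1 low value cannot show that pairing is absent. The main fits leave any such pairing out. The study's methods treat a time course as 1 block, and in the 30-min and 1-min series most same-numbered arrays did deviate together. Same-numbered arrays of different groups correlated at a median of 0.449 in the 30-min series (115 of 120 pairs of groups over 0.1), 0.357 in the 1-min series (621 of 630), 0.227 in the upshift series and −0.00 in the protease set. In the 30-min, 1-min and upshift series only T0 arrays 1 and 2 share a number with later arrays. In comparisons with T0 the block fits therefore rest on these T0 arrays alone. Blocking and the loss of the other T0 arrays cannot be told apart there. With the replicate block the counts were 49 for the parental strain, 0 for mutant against parental response, 11 for early upshift, and 5 (early, turned) and 9 (late) paralog pairs in the 30-min series. The block put RPS27A at 0.22 in the 1-min series and RPS30B at 0.30 early in the 30-min series. In the 30-min series it ended the early calls of RPS7B (1.01), RPL22A (1.85), RPL40B (1.19) and RPP2B (1.41) and the late ones of RPL40B (−1.13) and RPS24A (−2.12), and late in the upshift series that of RPL10 (−0.96), while RPP0 was called there (−1.13).

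With single replicates or single times left out, the counts of called members ranged from 63 to 93 (menadione 0.5 to 2 h), 84 to 97 (5 to 8 h), 117 to 119 (late against early), 88 to 103 (1-min series), 0 to 8 (10-s series at 130 to 180 s), 3 to 4 (mutant), 54 to 88 (parental), 90 to 92 (S288c), 37 to 83 (mutant against parental response), 0 to 3 (EX against SP buffer), 0 to 1 (SP2min against SP buffer), 0 to 0 (hot phenol), 106 to 114 (proteinase K isolation), 0 to 3, 13 to 20 and 0 to 2 (upshift early, late, late against early) and 64 to 68 (menadione against upshift). Called pairs ranged from 1 to 3 early, 2 to 9 late, 0 to 5 for SP proteinase K and 0 to 1 for EX against SP buffer.

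Single genes near 0 changed sign. Without centring RPL32 was at 0.26 in the 1-min series and, early in the 30-min series, at 1.01, with RPL41B at 0.94, RPS27A at 0.97 and RPS30B at 1.06. Late, RPL38 was at 0.17, RPL40A at 0.13, RPL40B at 0.034 and RPP2A at 0.30. RPP0 was at 0.085 for menadione against upshift and at 1.78 in the mutant, RPS2 at 1.31 in the mutant, RPL41B at 0.24 for mutant against parental response, RPS27A at 0.25 for proteinase K isolation and RPS30B at 0.34 for SP proteinase K. Centred on common genes RPL10 was at −0.19 in the 1-min series and RPS27A at 0.045 for proteinase K isolation, and centred on genes other than members RPS30A was at −0.046 there and RPS30B at 0.013 early in the 30-min series. RPL22A was at 0.35 in EX lysates without the Qiagen arrays, and RPS27A at −0.28 and −0.018 for EX against SP buffer in the proteinase K and the Qiagen arrays alone.

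With single replicates left out the following also crossed 0. Early in the 30-min series RPL32 ranged from −0.30 to 0.19, RPL41B from −0.40 to 0.14, RPP1A from −0.19 to 0.44, RPS25B from −0.47 to 0.55, RPS27A from −0.33 to 0.10 and RPS30B from −0.42 to 0.41. RPL10 ranged from −0.071 to 0.40 late against early, RPL32 from −0.26 to 0.094 in the 1-min series, RPL7B from −0.27 to 6.15 for SP proteinase K, RPS17B from −0.37 to 2.74 for hot phenol, and RPS27A from −0.15 to 0.12 and RPS30A from −0.037 to 0.063 for proteinase K isolation.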
